A study of Mus musculus with 34 samples.

Results

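NaJa-G cells kept in encorafenib until day 5 were compared with NaJa-G cells kept in the solvent DMSO for the same time, and all 14107 genes of the count table were members of the comparison. NaJa-G is 1 of 3 mouse colorectal cancer cell lines in the study. Each line grew from the peritoneal lavage of a different C57BL/6N mouse that had received colon organoids in the colon wall. The donor organoids carried VillinCreERT2, a tamoxifen-dependent Cre driven in gut epithelium, and Cre had switched on Braf V600E and Trp53 R172H and deleted Apc. DMSO controls and treated cells therefore shared all of these alleles, and NaJa-G stands for 1 recipient mouse. Encorafenib blocks the kinase made by mutant BRAF. It was given at 0.5 µM at day 0 and again with fresh medium at days 2 and 4, and the controls received matched DMSO. There were 3 encorafenib and 2 DMSO libraries at day 5, so 5 of the 34 libraries of the series entered the comparison. The labels do not say that replicates came from separate cultures, so the p-values measure only a spread between libraries, which may be technical. That spread was pooled over all 34 libraries of the series and is not that of the compared libraries alone.

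BRAF V600E drives MEK and ERK kinases without an upstream signal. ERK activity turns on genes of growth together with its own brakes, the dual-specificity phosphatases and the SPROUTY and SPRED proteins, and with ETS and AP-1 transcription factors. Because these genes follow ERK output closely, their transcripts serve as a readout of a BRAF inhibitor. Colorectal tumours are known to restore ERK signalling under BRAF inhibition through receptor tyrosine kinases such as EGFR.

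Total counts were 56441590 and 68457904 in the DMSO libraries and 63155873 to 71765499 with encorafenib. Levels are given below as CPM, read counts scaled to a common library size with TMM factors, in the order DMSO replicates 1 and 3, then encorafenib replicates 1, 2 and 3. The DMSO libraries differed from each other by 68.5 times the variance of counting noise, against 10.6 to 12.3 times for pairs of encorafenib libraries. Across 10256 genes the difference between the DMSO libraries ran with GC content (Spearman's rho -0.667), whereas the averaged response did not (rho -0.00647). The 16 mitochondrially encoded genes took 1.77% and 1.19% of counts in DMSO and 2.1% to 2.58% with encorafenib. Some results are therefore also given without a DMSO library. Other list counts also moved on leaving out 1 library and are given for the full fit only. Among them were those of mitosis, matrix glycoprotein, sterol and lysosomal genes.

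The label of a colorectal cancer line with mesenchymal features was checked against marker genes. Of 14 colorectal epithelial markers, 13 were among the genes tested, with summed levels of 2740 and 3270 CPM in DMSO and 3570 to 3800 CPM with encorafenib. Of these 13, 6 were called higher, 3 lower (Krt20, Vil1 and Cdx2) and 4 neither, and 2 stayed below 1 CPM in both groups. Cdx1 was not among the genes tested. Of 15 mesenchymal markers, 13 were tested and summed to 7650 and 7910 CPM in DMSO and 14700 to 15600 CPM with encorafenib. Fn1 alone had 5171 and 5134 CPM in DMSO and 12110, 12814 and 11987 CPM with encorafenib. Of the 13, 9 were called higher and 2, S100a4 and Twist1, lower. Fn1 also averaged 5153 CPM in DMSO of NaJa-G at day 5 and 9958 CPM in that of the epithelial line NaJa-D. The sum therefore does not mark a mesenchymal line. Of 11 lymphocyte markers none was among the genes tested. Trbc1, a T cell receptor constant gene outside that list, had 19.2 and 22 CPM in DMSO and 1.96, 1.92 and 1.65 CPM with encorafenib. Of 14 macrophage markers 4 were tested, without the defining genes Ptprc and Adgre1. Those 4 summed to 33.8 and 34 CPM in DMSO and 23.6 to 26 CPM with encorafenib, with Csf1r at 0.151 and 0.208 against 1.42, 1.83 and 1.32 CPM and Mrc1 at 8.11 and 6.13 against 0.694, 0.453 and 0.556 CPM. Of 10 endothelial markers 4 were tested, summing to 2.88 to 5.32 CPM in all 5 libraries, without Pecam1 and Cdh5. Of 13 fibroblast markers 6 were tested, 5 of them called higher, and their sum was 20.2 and 22.9 CPM in DMSO and 121 to 137 CPM with encorafenib. Of 10 mesothelial markers 7 were tested, 6 of them called higher, and their sum was 1380 and 1680 CPM in DMSO and 2860 to 3130 CPM with encorafenib. Called higher were Pdgfrb, Col1a1, Col1a2, Col3a1 and Dcn of fibroblasts and Msln, Upk3b, Lrrn4, Krt19, Bnc1 and Podxl of mesothelium. Not among the genes tested were Lum, Thy1, Fap, Dpt, Pi16, Dpep1 and Tcf21 of fibroblasts and Wt1, Upk1b and Muc16 of mesothelium. The marker lists share genes with the lists described further on. The part of such cells in the results was not tested, and in bulk RNA fewer cells of a kind cannot be told from less RNA per cell.

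After 5 days of encorafenib, genes of matrix, contraction and cell junctions were higher, and genes of replication, mitosis, ribosomes and sterol synthesis were lower. At an adjusted p below 0.01 in the limma fit, 7502 genes were called (53.2% of those tested), 4023 higher (28.5%) and 3479 lower (24.7%), so that 53.6% of calls were higher. This balance turned with library size only in place of TMM scaling, which gave 3679 higher and 3904 lower (48.5% higher). The median log2 fold change of all genes was 0.011 and the median of its absolute value 0.37. With a log2 fold change of at least 1 in either direction, 2263 genes remained (16.0%), of which 1611 were higher (11.4%) and 652 lower (4.62%). The libraries of the groups did not overlap for 10317 genes (73.1%). List counts below are to be read against 28.5% called higher and 24.7% lower, and gaps between libraries against this 73.1%. Without DMSO replicate 1, 6595 genes were called and 82.2% of the calls were kept. Without DMSO replicate 3, 6338 were called and 78.9% kept.

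**Figure D1:**
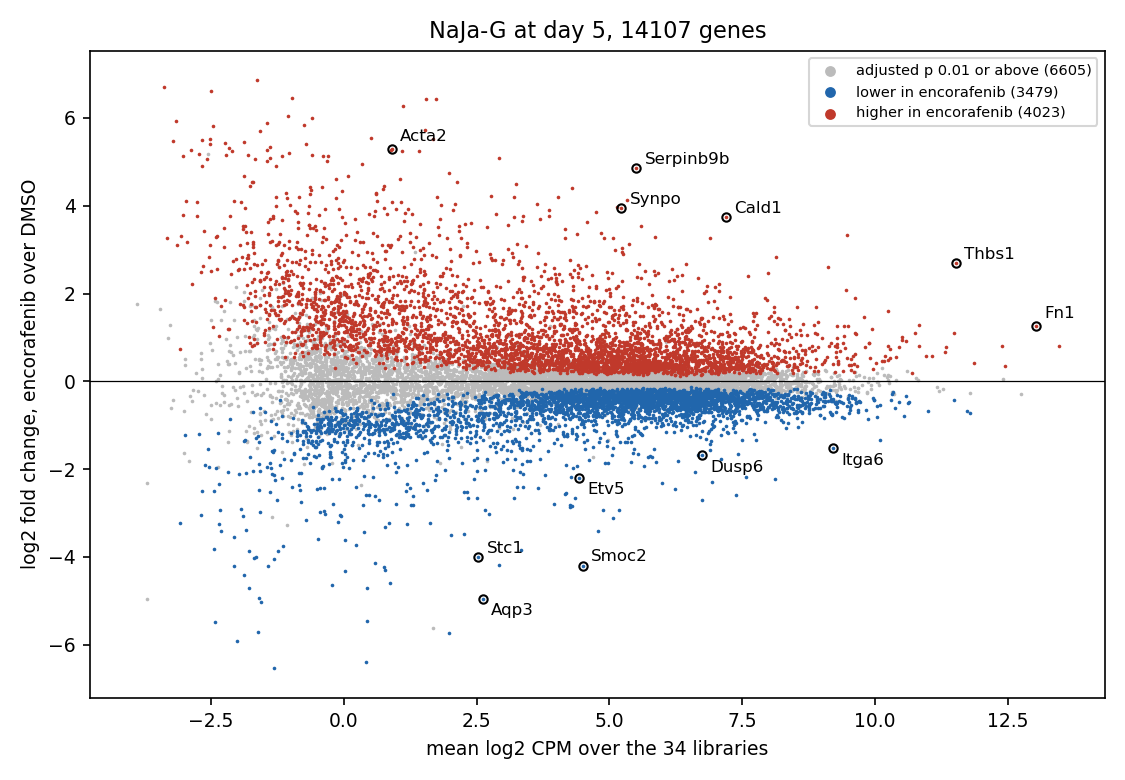
Log2 fold change of encorafenib over DMSO at day 5 against the mean log2 CPM over the 34 libraries, 1 point per gene; 4023 genes called higher are red, 3479 called lower blue and the others grey. Serpinb9b and Synpo lie high at middle levels, Thbs1 and Fn1 stand out at the high end, and Aqp3, Stc1 and Smoc2 lie below the other labelled genes.

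Among genes averaging at least 2 log2 CPM whose libraries did not overlap, the steepest fall was that of Aqp3, a water and glycerol channel (ENSMUSG00000028435, GRCm38 chromosome 4, 41092722 to 41098183, minus strand). It had 40.9 and 43.4 CPM in the DMSO libraries and 1.3, 1.62 and 1.21 CPM with encorafenib, a fall of 30.9 times (log2 fold change -4.95 ± 0.135 (SE), adjusted p = 6.11e-22). Smoc2, a matricellular calcium-binding protein (ENSMUSG00000023886, chromosome 17, 14279506 to 14404790, plus strand), had 369 and 389 CPM in the DMSO libraries and 21.7, 20.6 and 19.7 CPM with encorafenib (log2 fold change -4.20 ± 0.0668, adjusted p = 5.29e-27). For both genes every DMSO library lay far above every encorafenib library, where lack of overlap was a condition of this ranking. Stc1, a secreted glycoprotein hormone, went from 129.9 ± 8.63 to 8.09 ± 0.673 CPM. The retinol dehydrogenase Dhrs9, the retinaldehyde dehydrogenase Aldh1a3, the decoy receptor Tnfrsf11b (osteoprotegerin), the adhesion molecule Alcam, the guidance receptor ligand Sema5a and the neuropeptide precursor Qrfp had log2 fold changes of -4.17, -3.41, -3.11, -2.94, -2.94 and -2.86. The remaining genes among the 15 lowest were Sprr2h (-3.83), the T cell receptor constant gene Trbc1 (-3.49), Tmprss11b (-3.48), Spry4, Cdh17 and Gm26039. Gm26039 rested on the DMSO libraries, at 56.6 and 9.3 against 2.13, 1.5 and 5.85 CPM, and its log2 fold change ran from -4.37 without DMSO replicate 3 to -1.77 without DMSO replicate 1, and it was not called in a fit of the compared groups alone.

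Serpinb9b, a serine protease inhibitor of the ov-serpin family (ENSMUSG00000021403, chromosome 13, 33027416 to 33041884, plus strand), was among the 15 genes with the highest log2 fold change. It had 15 and 14.9 CPM in the DMSO libraries and 450.4, 421 and 426 CPM with encorafenib, a rise of 28.9 times (log2 fold change 4.86 ± 0.0828, adjusted p = 1.16e-26). Its relatives Serpinb11 and Serpinb1a rose by 4.13 and 4.03, and since Serpinb9b and Serpinb1a, both on chromosome 13, have close relatives, their counts are uncertain. Synpo, an actin-associated protein, had 10.6 and 11.1 CPM in the DMSO libraries and 165, 173 and 165 CPM with encorafenib (log2 fold change 3.95 ± 0.0737, adjusted p = 9.93e-26). No encorafenib library came near a DMSO library for these genes, but the ranking took only genes without overlap. The semaphorin Sema3d, the neuropeptide neurotensin (Nts), the pantetheinase Vnn1, the metalloprotease Adamts15 and the interleukin 18 receptor Il18r1 rose by 4.49, 3.97, 4.40, 4.53 and 3.90. Epb41l4a (3.90), Sertad4 (4.23), Dgkk (4.20), Nat8l (4.19), Plekhs1 (4.04) and the pseudogene Mgam2-ps (5.09) completed the 15 highest. Mgam2-ps may share reads with its gene family. Reads in DMSO were few for Plekhs1 (10 and 20), Mgam2-ps (18 and 16), Nat8l (20 and 25) and Sertad4 (35 and 24). The same held for Il18r1 (14 and 17) and Adamts15 (34 and 24).

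By CPM, a scale on which long transcripts weigh more, the largest rise among called genes was that of fibronectin (Fn1), followed by Thbs1, mt-Co1, mt-Cytb and Timp2. Timp2, an inhibitor of matrix proteases, had 1748 and 1748 CPM in the DMSO libraries and 3229, 3391 and 3218 CPM with encorafenib. The mitochondrial transcripts mt-Co1 (5698 and 3594 against 7447, 7449 and 8918 CPM) and mt-Cytb (2765 and 1786 against 3547, 3743 and 4505 CPM) followed the mitochondrial share of the libraries, which was lowest in DMSO replicate 3. The largest falls in CPM among called genes were those of Hsp90ab1, a cytosolic chaperone, Pkm, the muscle-type pyruvate kinase, Scd2, a fatty acid desaturase, Emp1, an epithelial membrane protein, and the integrin subunit Itga6. Hsp90ab1 went from 4208 ± 360.3 to 2543 ± 23.4 CPM, Pkm from 4023 ± 613 to 2492 ± 101 CPM and Emp1 from 1472 ± 79.5 to 581 ± 7.61 CPM.

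The genes of the engineered alleles were expressed in all 5 libraries. A gene count covers all exons, so it does not check a point mutation or a deleted exon. Braf itself had 62.2 and 45.4 CPM in the DMSO libraries and 67.2, 63.3 and 66.4 CPM with encorafenib (log2 fold change 0.31 ± 0.108, adjusted p = 0.0153) and was not called, although its groups did not overlap. It was called without DMSO replicate 1 and after the GC correction. Trp53 had 166 and 199 CPM in the DMSO libraries and 147, 138 and 136 CPM with encorafenib (log2 fold change -0.37, adjusted p = 2.95e-06), lower in each encorafenib library. Apc had 268 and 206 CPM in the DMSO libraries and 290.3, 289.5 and 295 CPM with encorafenib (log2 fold change 0.31, adjusted p = 0.00646), and this call was lost without DMSO replicate 3 and under several other settings.

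ERK output was assessed first. Of 15 feedback inhibitors, 5 were called higher, 8 lower and 2 neither, against 28.5% and 24.7% of all genes. Their median log2 fold change was -0.44 against 0.011 for all genes. Dusp6, the phosphatase that removes the activating phosphates from ERK (ENSMUSG00000019960, chromosome 10, 99263231 to 99267489, plus strand), had 137 and 193 CPM in the DMSO libraries and 51.8, 51.7 and 49.2 CPM with encorafenib (log2 fold change -1.68 ± 0.0833, adjusted p = 3.33e-16). Spry4, a SPROUTY inhibitor of receptor signalling, had 19.5 and 29.2 CPM in the DMSO libraries and 3.48, 3.18 and 2.86 CPM with encorafenib (log2 fold change -2.93 ± 0.145, adjusted p = 2.9e-16). Spred2, which restrains RAF activation, went from 258 ± 2.52 to 108 ± 2.16 CPM. All 3 genes were lower in every encorafenib library, and DMSO replicate 3 was the higher control for each. The group did not move as a block. The phosphatases Dusp10 and Dusp1, which act mainly on the stress kinases JNK and p38, rose from 9.88 ± 1.12 to 43 ± 1.13 CPM and from 49.4 ± 7.72 to 158 ± 6.58 CPM (log2 fold changes 2.12 and 1.69). Dusp2 and Dusp7 were not called, at -0.44 and -0.25.

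ETS factors and other targets of the pathway were divided in the same way. Of 16 such genes, 2 were called higher, 7 lower and 7 neither, against 28.5% and 24.7% of all genes. Their median log2 fold change was -0.065. The PEA3 subfamily of ETS factors fell throughout. Etv5 had 82.7 and 92.5 CPM in the DMSO libraries and 20.7, 18 and 18.7 CPM with encorafenib (log2 fold change -2.20 ± 0.0787, adjusted p = 2.68e-19). Etv4 (ENSMUSG00000017724, chromosome 11, 101769742 to 101785371, minus strand) had 93.7 and 103 CPM in the DMSO libraries and 26.5, 26.2 and 24.6 CPM with encorafenib (log2 fold change -1.93 ± 0.0744, adjusted p = 1.11e-18). Etv1, with the lowest log2 fold change of the list, went from 3.28 ± 0.253 to 0.33 ± 0.165 CPM (-3.38). In these 3 genes the groups stood clearly apart. The AP-1 subunit Fosl1, stabilised by ERK, had 58.2 and 82.1 CPM in the DMSO libraries and 21.5, 20.8 and 20.3 CPM with encorafenib (log2 fold change -1.73), and Myc fell from 161 ± 29.1 to 76.9 ± 2.33 CPM (-1.05). Ccnd1, the D-type cyclin that links ERK to the cell cycle, went the other way. It had 773 and 815 CPM in the DMSO libraries and 1259, 1306 and 1269.9 CPM with encorafenib (log2 fold change 0.69 ± 0.0935, adjusted p = 3.21e-07), and every encorafenib library exceeded both controls. Lif, a cytokine of the interleukin 6 family, rose by 0.96, and without DMSO replicate 3 the number called higher was 4.

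Immediate early genes respond within minutes to growth factors and stress. Of 19, 8 were called higher, 7 lower and 4 neither (median log2 fold change 0.12), against 28.5% and 24.7% of all genes. Egr3 was the lowest, with 78 and 115 reads in the DMSO libraries and 5, 8 and 7 reads with encorafenib (log2 fold change -3.82). Egr1, a standard reporter of ERK pulses, had 9.4 and 15.3 CPM in the DMSO libraries and 8.91, 9.11 and 8.48 CPM with encorafenib (log2 fold change -0.46, adjusted p = 0.00195). Only DMSO replicate 3 lay well above the treated libraries, and without it the log2 fold change was -0.0955 and the call was lost. Atf3, a stress-induced ATF factor, was the highest, at 3.44 and 4.31 against 13, 13.1 and 13.4 CPM (log2 fold change 1.76). Fos stayed low and rose from 0.842 ± 0.103 to 1.59 ± 0.381 CPM (0.87), a call lost without DMSO replicate 1.

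**Figure D2:**
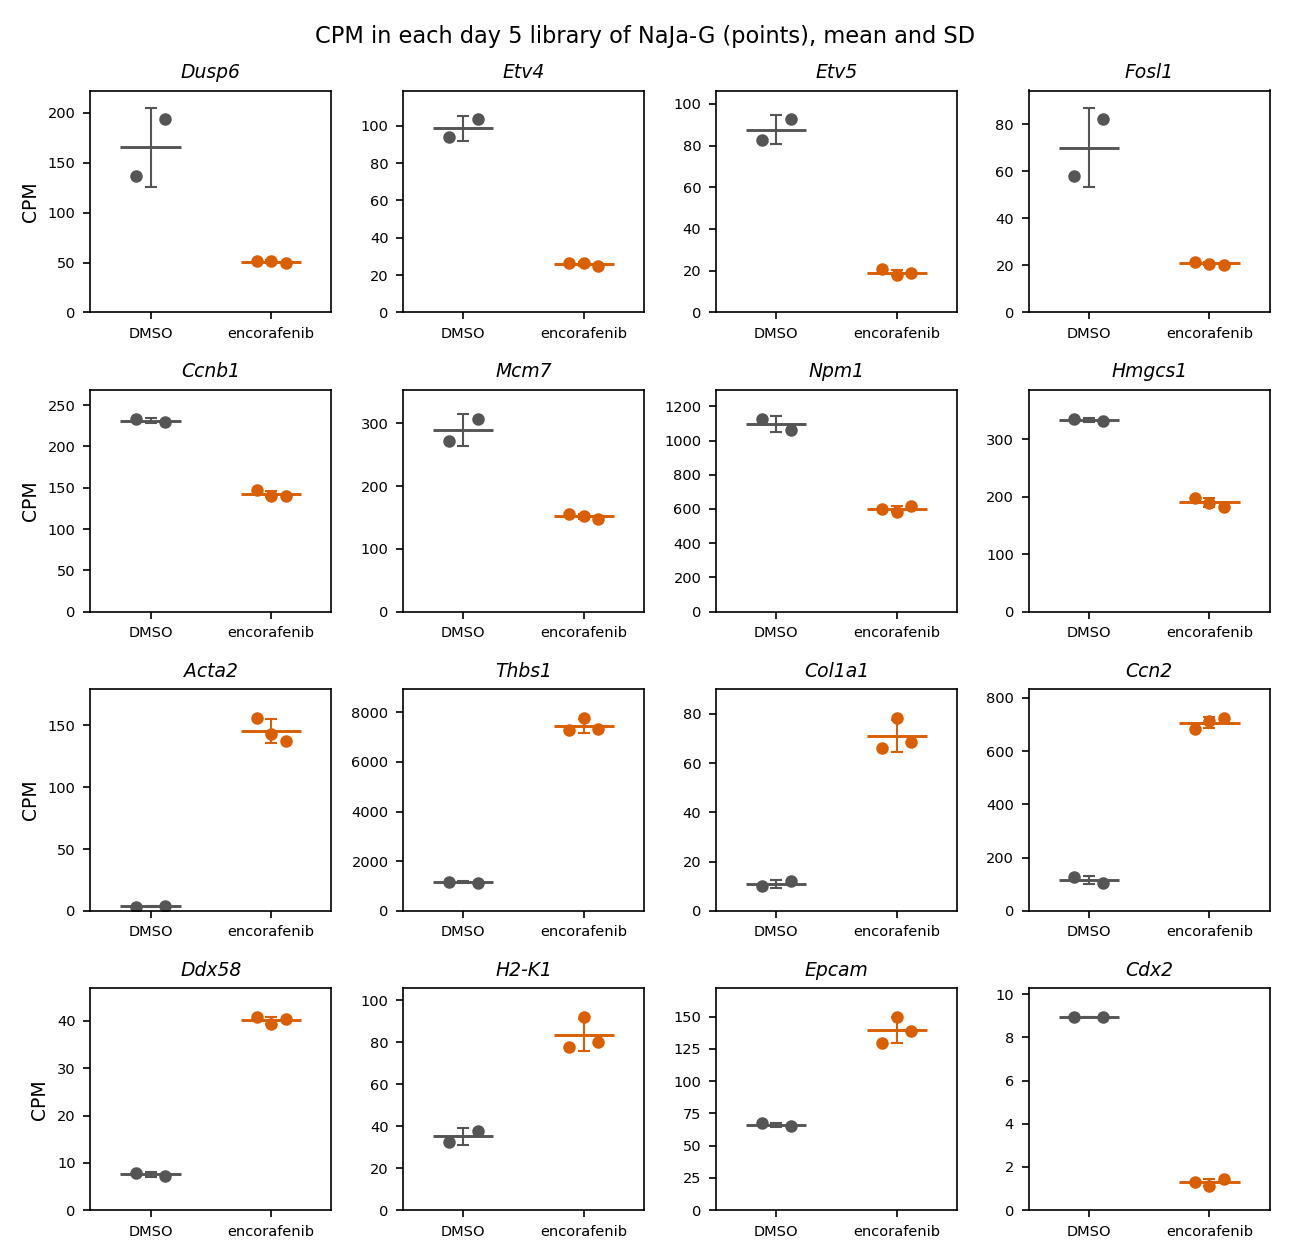
CPM of 16 genes in the 2 DMSO and the 3 encorafenib libraries of NaJa-G at day 5 (points), with the mean (line) and the SD (bars), each panel on its own linear axis from 0. The genes were picked with results known, and the groups overlap in none of the panels, as for 73.1% of all genes. For Dusp6 and Fosl1 the DMSO libraries lie apart from each other while the encorafenib libraries coincide.

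Receptor tyrosine kinases and their ligands feed into RAS upstream of BRAF. Of 24 receptor kinases tested, 11 were called higher, 2 lower and 11 neither, against 28.5% and 24.7% of all genes. Their median log2 fold change was 0.34. Egfr had 39.3 and 38.7 CPM in the DMSO libraries and 70.8, 73.6 and 70.3 CPM with encorafenib (log2 fold change 0.88 ± 0.0701, adjusted p = 1.19e-11). Erbb3, its kinase-impaired partner, had 14.8 and 17.3 CPM in the DMSO libraries and 33, 37.1 and 32.6 CPM with encorafenib (log2 fold change 1.09 ± 0.0873, adjusted p = 1.24e-11). Both receptors were higher in each encorafenib library than in either control. Ddr2, a receptor for fibrillar collagen, rose most, from 1.11 ± 0.372 to 9.56 ± 0.361 CPM (3.17), and the fibroblast growth factor receptor Fgfr3 rose from 3.21 ± 0.137 to 13.4 ± 0.516 CPM (2.06). Erbb2 was not called, at 79 and 95.1 against 97, 103 and 93.8 CPM (log2 fold change 0.17, adjusted p = 0.0704), with overlap between the groups, and passed only without DMSO replicate 3. Met, the hepatocyte growth factor receptor (-0.41), and Ror2, a WNT receptor (-0.49), were called lower, Met not without DMSO replicate 1 and Ror2 not without DMSO replicate 3.

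Among 23 ligands of these kinases, 7 were called higher, 5 lower and 11 neither (median log2 fold change 0.16), near the 28.5% and 24.7% of all genes. The EGFR ligand amphiregulin (Areg) had 21.3 and 22.6 CPM in the DMSO libraries and 3.17, 3.85 and 3.5 CPM with encorafenib (log2 fold change -2.65 ± 0.154, adjusted p = 1.12e-14). Betacellulin (Btc), a ligand of EGFR and ERBB4, fell from 24.3 ± 2.81 to 6.44 ± 0.177 CPM (-1.90). Igf2, an insulin-like growth factor, rose most. It had 2.51 and 2.67 CPM in the DMSO libraries and 31.9, 35.1 and 34.9 CPM with encorafenib (log2 fold change 3.70 ± 0.16, adjusted p = 1.55e-17), with all treated libraries far above the controls. Gas6, the ligand of the AXL family, rose from 38.2 ± 3.52 to 103 ± 3.86 CPM (1.43).

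Cell cycle genes fell with few exceptions. Of 44 replication genes, 0 were called higher, 37 lower and 7 neither, and of 46 mitosis genes, 1 was called higher, 45 lower and 0 neither, against 24.7% called lower among all genes. The median log2 fold changes were -0.60 and -0.53. Mcm7, a subunit of the replicative helicase, had 272 and 308 CPM in the DMSO libraries and 156, 153 and 148 CPM with encorafenib (log2 fold change -0.92 ± 0.0674, adjusted p = 1.61e-12). E2f2, a transcription factor of S phase genes, fell most in the list, from 15.4 ± 0.381 to 3.54 ± 0.192 CPM (-2.12), and the clamp loader subunit Rfc1 fell least among those called (-0.30), a call lost without DMSO replicate 1. Cdt1, the licensing factor, went from 94.7 ± 10.2 to 42.3 ± 2.32 CPM. In mitosis, Ccnb1, the cyclin that activates CDK1, had 234 and 229 CPM in the DMSO libraries and 147, 140.4 and 139.7 CPM with encorafenib (log2 fold change -0.70 ± 0.0555, adjusted p = 9.41e-12). The CDK1 phosphatase Cdc25b was lowest, from 179.5 ± 18.9 to 89.1 ± 0.677 CPM. The proliferation marker Mki67 had 1063 and 767 CPM in the DMSO libraries and 589, 621 and 639 CPM with encorafenib, with the controls far apart, and its call was lost without DMSO replicate 1. Securin (Pttg1) was the exception at 11.4 and 14.4 against 18.2, 17.1 and 16.8 CPM (log2 fold change 0.43), and without DMSO replicate 1 it was no longer called.

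Mitotic genes are known for the CHR element, through which the DREAM complex and MYB-MuvB act. The promoters of Ccnb2 (GRCm38.p6 chr9:70421505-70421804, minus strand) and Cdk1 (chr10:69352863-69353162, minus strand) hold 2 copies each, so they are printed here from RefSeq, from 250 bases before to 50 bases after the start of the gene, with TTTGAA in capitals.
Ccnb2: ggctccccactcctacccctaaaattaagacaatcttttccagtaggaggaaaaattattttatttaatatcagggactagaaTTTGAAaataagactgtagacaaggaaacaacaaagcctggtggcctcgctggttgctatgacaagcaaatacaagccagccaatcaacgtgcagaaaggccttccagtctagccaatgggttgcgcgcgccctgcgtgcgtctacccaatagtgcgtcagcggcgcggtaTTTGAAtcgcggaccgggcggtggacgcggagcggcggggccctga
Cdk1: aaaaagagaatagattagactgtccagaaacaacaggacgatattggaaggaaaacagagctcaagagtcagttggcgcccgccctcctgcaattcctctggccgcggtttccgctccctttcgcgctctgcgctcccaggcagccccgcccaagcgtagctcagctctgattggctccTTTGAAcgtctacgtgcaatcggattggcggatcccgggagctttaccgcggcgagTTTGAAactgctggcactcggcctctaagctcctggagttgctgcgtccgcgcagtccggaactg
Ccnb2, the partner of CDK1 at the Golgi, had 107 and 107 CPM in the DMSO libraries and 73.6, 68.5 and 73.1 CPM with encorafenib (log2 fold change -0.58, adjusted p = 4.31e-10). Cdk1 had 216 and 235 CPM in the DMSO libraries and 167, 155 and 159 CPM with encorafenib (log2 fold change -0.49, adjusted p = 8.72e-08). On either strand, TTTGAA stood in the promoters of 28 of the 39 mitosis genes with an entry (71.8%), against 20.2% of 27025 genes and 17.9% of 32851 promoters of the same length. A match is a description of the letters and not a site.

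Of 21 D-type cyclin, CDK inhibitor and related genes, 8 were called higher, 7 lower and 6 neither, against 28.5% and 24.7% of all genes. Their median log2 fold change was 0.16. Ccnd2 rose together with Ccnd1, at 305 and 297 against 670.1, 672 and 674 CPM (log2 fold change 1.16), and the kinase Cdk6 rose from 111 ± 21.1 to 214 ± 5.11 CPM (0.96). The CDK inhibitor Cdkn1a (p21) fell from 18.8 ± 3.05 to 10.6 ± 0.305 CPM (-0.82), and Btg1, an antiproliferative adaptor, was lowest (-1.08). Without DMSO replicate 3, 4 genes of this list were called lower.

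The machinery of ribosomes fell as well. Of 38 MYC and ribosome biogenesis genes, 1 was called higher, 32 lower and 5 neither (median log2 fold change -0.60). Nucleophosmin (Npm1) had 1127 and 1064 CPM in the DMSO libraries and 601, 583 and 618 CPM with encorafenib (log2 fold change -0.87 ± 0.0738, adjusted p = 4.21e-11). Polr1b, a subunit of RNA polymerase I, had 71.9 and 72.3 CPM in the DMSO libraries and 36, 35.8 and 35.9 CPM with encorafenib (-1.01), and the treated libraries lay close together below the controls. Myc was the lowest of the list, and Mxd4, a MAX partner that opposes MYC, was the highest, from 58.4 ± 5.86 to 97.8 ± 1.78 CPM (0.74). Of 79 ribosomal protein genes, 0 were called higher, 67 lower and 12 neither (median log2 fold change -0.47). Without DMSO replicate 3, 43 were called lower. Many of these genes have processed pseudogenes, which makes their counts uncertain.

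Matrix genes rose widely. Of 23 collagens, 18 were called higher, 1 lower and 4 neither, with a median log2 fold change of 2.21, and 14 rose by at least 1 log2 unit, against 11.4% of all genes. Col1a1, the main chain of type I collagen (ENSMUSG00000001506, chromosome 11, 94936224 to 94953042, plus strand), had 9.92 and 12.1 CPM in the DMSO libraries and 66.2, 78.4 and 68.7 CPM with encorafenib (log2 fold change 2.68 ± 0.118, adjusted p = 2.29e-17). Col12a1, a fibril-associated collagen, had 30.9 and 27.2 CPM in the DMSO libraries and 246, 261 and 247 CPM with encorafenib (log2 fold change 3.12 ± 0.116, adjusted p = 5.8e-19). In both, the lowest treated library stood several times above the higher control. Col11a1, which nucleates fibrils, had 22 and 34 reads in the DMSO libraries and 1680, 1798 and 2088 reads with encorafenib (5.99). Col5a1 rose from 53.9 ± 3.02 to 296 ± 22.9 CPM (2.46). Only Col18a1, a basement membrane collagen, was called lower, from 849 ± 124 to 627 ± 52.1 CPM (-0.43), and not without DMSO replicate 3. The fibroblast marker list shares its collagens and Dcn with these lists.

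Matrix glycoproteins rose almost throughout. Of 30, 27 were called higher, 2 lower and 1 neither (median log2 fold change 1.46). Fn1, fibronectin, had 5171 and 5134 CPM in the DMSO libraries and 12110, 12814 and 11987 CPM with encorafenib (log2 fold change 1.25 ± 0.0845, adjusted p = 2.88e-13). Thbs1, thrombospondin 1 (ENSMUSG00000040152, chromosome 2, 118111876 to 118127133, plus strand), had 1182 and 1136 CPM in the DMSO libraries and 7264, 7768 and 7324 CPM with encorafenib (log2 fold change 2.68 ± 0.0792, adjusted p = 3.84e-21). Every treated library lay far above both controls, and replicates lay close together. The small proteoglycans Dcn and Fmod and the elastic fibre protein Fbln5 rose from low levels. Dcn had 7 and 26 reads in the DMSO libraries and 794, 829 and 954 reads with encorafenib, and its log2 fold change of 5.83 moved to 6.65 without DMSO replicate 3. Fbln5 rose by 5.55 and Fmod by 5.05. Smoc2 and Lamb1 were called lower, Lamb1, a laminin chain, from 232 ± 8.44 to 127 ± 3.41 CPM.

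Enzymes that crosslink or cut matrix rose too. Of 28, 22 were called higher, 2 lower and 4 neither (median log2 fold change 1.26). Loxl2, a lysyl oxidase, had 1.29 and 1.18 CPM in the DMSO libraries and 18.5, 18.8 and 17.2 CPM with encorafenib (log2 fold change 3.88 ± 0.155, adjusted p = 2.54e-18). Mmp14, a membrane-bound collagenase, had 103 and 113 CPM in the DMSO libraries and 328, 339 and 309.5 CPM with encorafenib (log2 fold change 1.59 ± 0.0674, adjusted p = 1.02e-17). Neither gene showed overlap between the groups. The aggrecanase Adamts5 rose from 0.292 ± 0.0601 to 11.3 ± 0.603 CPM (5.27), whereas Adamts8 fell from 15.7 ± 1.49 to 0.601 ± 0.137 CPM (-4.71). Without DMSO replicate 1, 4 genes of this list were called lower. Of 14 integrin genes, 8 were called higher, 3 lower and 3 neither (median log2 fold change 0.45), against 28.5% and 24.7% of all genes. Itga11, a collagen receptor subunit, rose from 0.317 ± 0.0223 to 11.3 ± 0.809 CPM (5.12), and Itgb1, the common beta chain, had 2196 and 1911 CPM in the DMSO libraries and 2992, 3109.9 and 3009 CPM with encorafenib (0.57). Itga6, the laminin-binding subunit, had 1289.6 and 1093 CPM in the DMSO libraries and 408, 422 and 409 CPM with encorafenib (log2 fold change -1.52 ± 0.0872, adjusted p = 7.78e-15).

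Contractile genes rose as well. Of 21 smooth muscle and actomyosin genes, 20 were called higher, 0 lower and 1 neither (median log2 fold change 1.26), and 12 rose by at least 1 log2 unit. Acta2, smooth muscle actin (ENSMUSG00000035783, chromosome 19, 34241090 to 34255590, minus strand), had 3.56 and 3.85 CPM in the DMSO libraries and 156, 143 and 137 CPM with encorafenib, a rise of 39 times (log2 fold change 5.29 ± 0.135, adjusted p = 1.51e-22). Cald1, caldesmon, had 46.8 and 41.5 CPM in the DMSO libraries and 599.7, 572 and 598 CPM with encorafenib (log2 fold change 3.74 ± 0.0736, adjusted p = 3.22e-25). Tpm1, a tropomyosin, had 746 and 783 CPM in the DMSO libraries and 1789, 1740.1 and 1731 CPM with encorafenib (1.20). Calponin (Cnn1) was highest, with 9 and 16 reads in the DMSO libraries and 718, 632 and 684 reads with encorafenib (5.69). The myosin light chain kinase Mylk was called with the smallest change, from 34.9 ± 1.5 to 42.4 ± 1.36 CPM (0.28), and lost the call without DMSO replicate 3.

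Many contractile genes answer to serum response factor, which binds the CArG box, searched as CC, then 6 bases that are A or T, then GG. Vcl (GRCm38.p6 chr14:20929148-20929447, plus strand) and Myl9 (chr2:156775214-156775513, plus strand) hold a box in the promoter and rose, so their RefSeq promoters are printed with the box in capitals.
Vcl: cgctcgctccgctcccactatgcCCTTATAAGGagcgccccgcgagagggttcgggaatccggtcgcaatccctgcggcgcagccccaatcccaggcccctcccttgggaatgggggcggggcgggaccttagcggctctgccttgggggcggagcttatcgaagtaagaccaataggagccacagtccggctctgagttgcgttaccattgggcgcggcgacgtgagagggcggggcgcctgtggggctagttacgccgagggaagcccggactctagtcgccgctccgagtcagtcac
Myl9: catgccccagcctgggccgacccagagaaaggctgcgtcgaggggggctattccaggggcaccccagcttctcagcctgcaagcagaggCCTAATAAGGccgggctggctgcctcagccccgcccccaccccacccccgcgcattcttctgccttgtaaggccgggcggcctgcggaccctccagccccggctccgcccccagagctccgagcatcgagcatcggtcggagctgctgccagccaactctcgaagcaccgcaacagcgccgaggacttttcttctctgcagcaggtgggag
Vcl, vinculin of focal adhesions, had 200.4 and 191 CPM in the DMSO libraries and 328, 359.7 and 337 CPM with encorafenib (log2 fold change 0.80, adjusted p = 1.81e-08). Myl9, a myosin regulatory light chain, had 24 and 26 reads in the DMSO libraries and 770, 750 and 852 reads with encorafenib (log2 fold change 4.91, adjusted p = 9.71e-16). On either strand the box stood in the promoters of 4 of 18 contractile genes with an entry (22.2%), against 1.81% of all genes and 1.63% of all promoters.

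YAP and its partner TEAD regulate genes of stretch and of the regenerating gut. Of 22 YAP targets and genes of fetal-like epithelium, 18 were called higher, 1 lower and 3 neither (median log2 fold change 0.78). Ccn2, a matricellular growth factor modulator, had 126 and 105 CPM in the DMSO libraries and 683, 712 and 724 CPM with encorafenib (log2 fold change 2.61 ± 0.083, adjusted p = 2.02e-20). Ccn1, its relative, rose from 188 ± 0.85 to 456 ± 21.2 CPM (1.28). Il33, an alarmin cytokine, rose most, from 3.22 ± 0.205 to 22.3 ± 0.716 CPM (2.78), and mesothelin (Msln) rose from 530.0 ± 48 to 1615 ± 109 CPM (1.61). Osteopontin (Spp1) was the only member called lower, at 570.5 and 535 against 108, 113 and 115 CPM (log2 fold change -2.30), where treated and control libraries were far apart. The promoter of Ankrd1 (GRCm38.p6 chr19:36119795-36120094, minus strand), a muscle ankyrin repeat protein and a standard YAP target, is printed from RefSeq with the TEAD letters CATTCC in capitals as they appear on the gene's strand or its complement.
Ankrd1: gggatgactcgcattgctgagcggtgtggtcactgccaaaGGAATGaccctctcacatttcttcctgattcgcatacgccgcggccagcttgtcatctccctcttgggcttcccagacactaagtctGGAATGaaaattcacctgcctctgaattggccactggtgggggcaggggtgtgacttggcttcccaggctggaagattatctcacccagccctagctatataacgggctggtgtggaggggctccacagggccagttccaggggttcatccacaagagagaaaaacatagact
Ankrd1 had 73 and 76.1 CPM in the DMSO libraries and 409.6, 373 and 393 CPM with encorafenib (log2 fold change 2.39 ± 0.0813, adjusted p = 9.13e-20). CATTCC, on either strand, stood in the promoters of 11 of 15 members with an entry (73.3%), against 16.6% of all genes and 14.7% of all promoters.

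**Figure D3:**
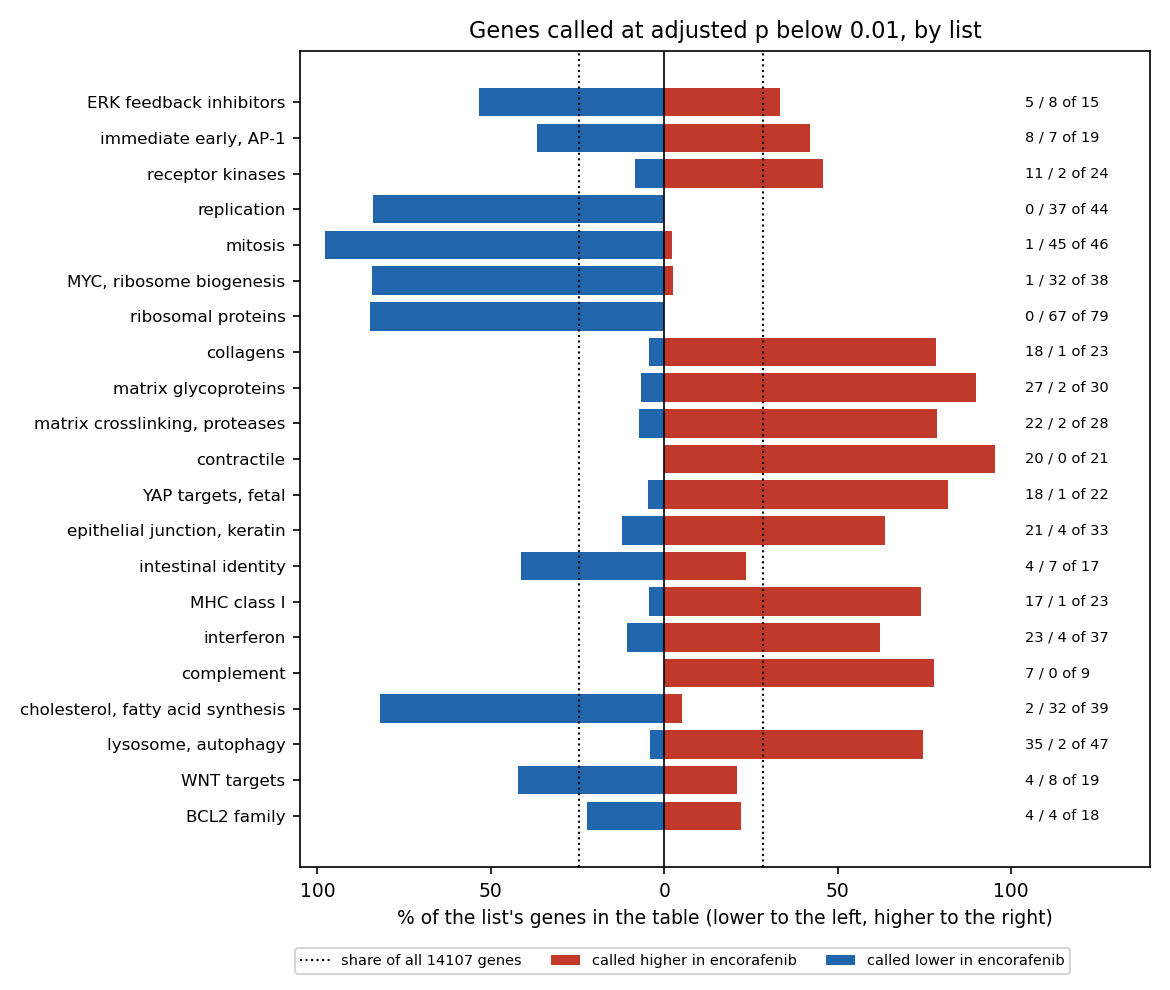
Share of each list's tested genes called higher (right, red) and lower (left, blue) in encorafenib, in percent, with the counts of higher and lower genes printed at the right; dotted lines mark the shares of all genes, 28.5% and 24.7%. Bars of matrix, contractile and YAP genes lie almost wholly to the right, and those of replication, mitosis, ribosome and sterol genes to the left.

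Epithelial and mesenchymal lists both held more genes called higher than lower. Of 33 junction and keratin genes, 21 were called higher, 4 lower and 8 neither (median log2 fold change 0.88), and of 13 mesenchymal genes, 9 were called higher, 2 lower and 2 neither (median 1.25). Epcam, an epithelial adhesion molecule, had 67.3 and 65.1 CPM in the DMSO libraries and 129.6, 149.6 and 139 CPM with encorafenib (log2 fold change 1.07 ± 0.0708, adjusted p = 1.88e-13). The tight junction proteins Cldn4 and Cldn1 rose from 73.6 ± 7.75 to 275 ± 17.5 CPM and from 0.527 ± 0.0588 to 6.4 ± 0.215 CPM, and the desmosomal cadherin Dsg2 rose from 10.3 ± 0.902 to 51 ± 2.01 CPM. E-cadherin (Cdh1) had 578 and 584 CPM in the DMSO libraries and 563, 592 and 564 CPM with encorafenib, so its groups overlapped (log2 fold change -0.02, adjusted p = 0.832). Cdh17, a cadherin of the intestine, was the lowest of the list at 37.5 and 34.1 against 5.04, 4.73 and 5.11 CPM (log2 fold change -2.84, adjusted p = 2.73e-18). Vim, vimentin, had 2087 and 2384 CPM in the DMSO libraries and 1834, 1911 and 1857 CPM with encorafenib and was not called, although its groups did not overlap (log2 fold change -0.25 ± 0.125, adjusted p = 0.0771). Col3a1, a fibrillar collagen, rose most among mesenchymal genes (3.17), and S100a4, a motility-linked calcium-binding protein, fell from 12.2 ± 0.48 to 3.85 ± 0.874 CPM (-1.68).

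Transcription factors of the epithelial to mesenchymal transition were mixed. Of 16, 7 were called higher, 5 lower and 4 neither (median log2 fold change 0.27), against 28.5% and 24.7% of all genes. Fewer were called lower without DMSO replicate 3. Zeb1, a repressor of epithelial genes, had 43.4 and 35.7 CPM in the DMSO libraries and 73.1, 71.3 and 74.6 CPM with encorafenib (log2 fold change 0.89 ± 0.0651, adjusted p = 1.58e-12). Snai2, a further repressor, rose most, from 6.32 ± 0.281 to 23.9 ± 1.32 CPM (1.92). Grhl3, which supports epithelial identity, fell from 7.09 ± 1.87 to 1.77 ± 0.336 CPM (-2.02).

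Intestinal identity genes fell more often than they rose. Of 17, 4 were called higher, 7 lower and 6 neither (median log2 fold change -0.28), against 28.5% and 24.7% of all genes. Cdx2, the homeobox factor of intestinal fate (ENSMUSG00000029646, chromosome 5, 147300805 to 147307270, minus strand), had 8.93 and 8.92 CPM in the DMSO libraries and 1.28, 1.14 and 1.45 CPM with encorafenib (log2 fold change -2.78 ± 0.209, adjusted p = 2.98e-12). Hnf4a, a nuclear receptor of the enterocyte, fell from 3.97 ± 0.0335 to 0.422 ± 0.0263 CPM (-3.22). The water channel Aqp8 was lowest, with 288 and 423 reads in the DMSO libraries and 3, 8 and 10 reads with encorafenib (-5.74). For these genes no treated library reached the controls. Carbonic anhydrase 2 (Car2) rose from 21.1 ± 2.04 to 77.4 ± 0.458 CPM (1.87), and the goblet cell mucin Muc2, with 15 and 16 reads in the DMSO libraries and 50, 65 and 77 reads with encorafenib, was highest (1.95), a call lost without DMSO replicate 3.

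MHC class I molecules display peptides to T cells. Of 23 class I and peptide-loading genes, 17 were called higher, 1 lower and 5 neither (median log2 fold change 0.72). A further 13 of the 36 listed were not among the genes tested, including Tap1, Psmb8, Psmb9 and Nlrc5. H2-K1, a classical class I heavy chain, had 32.3 and 37.9 CPM in the DMSO libraries and 77.8, 91.9 and 80.2 CPM with encorafenib (log2 fold change 1.24 ± 0.086, adjusted p = 5.09e-13). B2m, the light chain, had 132 and 148 CPM in the DMSO libraries and 245, 260.1 and 260.2 CPM with encorafenib (log2 fold change 0.87 ± 0.0798, adjusted p = 2.14e-10). Tapasin (Tapbp), which loads peptides, rose from 90.5 ± 12 to 222 ± 14.8 CPM (1.30). Each treated library exceeded both controls for these 3 genes. H2-D1 rose by 0.43, a call lost without DMSO replicate 1. Mr1, which presents metabolites, was highest with 6 and 12 reads in the DMSO libraries and 81, 115 and 127 reads with encorafenib (3.49), and H2-Q1 was lowest (-1.17), not called without DMSO replicate 3. H2 genes are near copies of each other, so their counts may be shared.

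Interferon genes were called higher more often than lower. Of 51 listed, 37 were tested, and of these 23 were called higher, 4 lower and 10 neither (median log2 fold change 0.60). The 14 not among the genes tested included Ifit1, Ifit3, Isg15, Oas1a, Mx1, Mx2 and Rsad2. Irgm1, an immunity-related GTPase, rose from 11.5 ± 0.549 to 40.5 ± 1.1 CPM (1.82). Gbp2, a guanylate-binding protein, was highest, with 2 and 8 reads in the DMSO libraries and 97, 114 and 148 reads with encorafenib, and its log2 fold change of 4.60 became 5.38 without DMSO replicate 3. Socs1, a brake on interferon signalling, fell from 2.47 ± 0.649 to 0.414 ± 0.108 CPM (-2.59), and Irf8, a myeloid-enriched interferon regulatory factor, was lowest at 92 and 84 reads in the DMSO libraries and 16, 9 and 15 reads with encorafenib (-2.75). The interferon-stimulated response element, searched as 2 copies of GAAA set 2 free bases apart on either strand, is shown in capitals in the RefSeq promoter of Ddx58 (GRCm38.p6 chr4:40239776-40240075, minus strand), the gene of the RNA sensor RIG-I, where it stands as its complement.
Ddx58: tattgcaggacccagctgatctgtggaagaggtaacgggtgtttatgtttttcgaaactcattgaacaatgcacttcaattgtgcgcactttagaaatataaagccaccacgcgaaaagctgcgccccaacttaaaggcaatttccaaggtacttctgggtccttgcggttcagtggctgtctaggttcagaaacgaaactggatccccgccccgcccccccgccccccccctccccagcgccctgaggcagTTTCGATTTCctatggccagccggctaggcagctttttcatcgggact
Ddx58 had 7.94 and 7.15 CPM in the DMSO libraries and 40.8, 39.3 and 40.4 CPM with encorafenib (log2 fold change 2.42 ± 0.073, adjusted p = 5.93e-21). The element stood in the promoters of 9 of 31 interferon genes (29%) and 5 of 18 class I genes (27.8%) with an entry, against 3.99% of all genes and 3.44% of all promoters.

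Secreted immune factors were uneven. Of 24 chemokines and other secreted factors, 11 were called higher, 5 lower and 8 neither, against 28.5% and 24.7% of all genes. Their median log2 fold change was 0.48. Csf1, the macrophage growth factor, had 52.3 and 49.1 CPM in the DMSO libraries and 189, 198 and 191 CPM with encorafenib (log2 fold change 1.93 ± 0.0554, adjusted p = 2.15e-21). Il15, a cytokine of natural killer and memory T cells, was highest with 10 and 18 reads in the DMSO libraries and 162, 160 and 170 reads with encorafenib (3.49). Of 9 complement and acute phase genes, 7 were called higher, 0 lower and 2 neither (median log2 fold change 2.36), from the protease C1s1, with 9 and 14 reads in the DMSO libraries and 627, 670 and 776 reads with encorafenib (5.82), to C3 (1.70). The initiating protease C1ra rose from 1.03 ± 0.0394 to 20.7 ± 1.04 CPM (4.32). A further 15 of the 24 listed complement and acute phase genes were not among the genes tested, including Saa1, Saa2, Saa3, Hp and Orm1.

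Genes of sterol and fatty acid synthesis were mostly called lower. Of 39 genes, 2 were called higher, 32 lower and 5 neither (median log2 fold change -0.58). Scd2, which desaturates fatty acids (ENSMUSG00000025203, chromosome 19, 44293674 to 44306864, plus strand), had 2994 and 3130.5 CPM in the DMSO libraries and 1871, 1960 and 1878 CPM with encorafenib (log2 fold change -0.69 ± 0.0879, adjusted p = 1.16e-07). Every treated library lay below both controls. Insig2, which holds back SREBP, was highest, from 31.3 ± 1.04 to 56 ± 0.562 CPM (0.84). Sterol genes are known for CCAAT boxes bound by NF-Y beside SREBP sites, and the RefSeq promoter of Hmgcs1 (GRCm38.p6 chr13:119690101-119690400, plus strand) is printed with its 4 boxes in capitals, all as the complement ATTGG.
Hmgcs1: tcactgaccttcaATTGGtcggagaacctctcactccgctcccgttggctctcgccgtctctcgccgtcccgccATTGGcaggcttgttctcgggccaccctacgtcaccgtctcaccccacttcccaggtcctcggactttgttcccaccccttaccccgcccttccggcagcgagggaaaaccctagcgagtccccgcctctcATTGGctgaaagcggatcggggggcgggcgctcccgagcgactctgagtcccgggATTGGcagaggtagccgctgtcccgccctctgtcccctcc
Hmgcs1, which makes the precursor of mevalonate, had 336 and 331 CPM in the DMSO libraries and 198, 189 and 183 CPM with encorafenib (log2 fold change -0.81 ± 0.0648, adjusted p = 1.12e-11). CCAAT, on either strand, stood in the promoters of 25 of 28 members with an entry (89.3%), against 41.1% of all genes and 37.4% of all promoters.

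Lysosomal and autophagy genes rose by small steps. Of 47, 35 were called higher, 2 lower and 10 neither (median log2 fold change 0.46). The protease cathepsin D (Ctsd) had 852 and 1045 CPM in the DMSO libraries and 1644, 1699 and 1562 CPM with encorafenib (log2 fold change 0.80, adjusted p = 1.97e-07), and the hexosaminidase subunit Hexa had 31.5 and 32.2 CPM in the DMSO libraries and 90.6, 94.1 and 88.5 CPM with encorafenib (log2 fold change 1.51, adjusted p = 2.49e-14). Cathepsin F (Ctsf) was highest, from 1.42 ± 0.016 to 7.19 ± 0.753 CPM (2.33), and Cln3, a lysosomal membrane protein, lowest (-0.41), not called without DMSO replicate 3.

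WNT targets were called in both directions. Of 19 WNT targets, 4 were called higher, 8 lower and 7 neither (median log2 fold change -0.02), against 28.5% and 24.7% of all genes. Tcf7, a transcription factor of the pathway, had 113 and 118 CPM in the DMSO libraries and 40.1, 39.8 and 38.8 CPM with encorafenib (log2 fold change -1.54 ± 0.0672, adjusted p = 1.75e-17). The feedback inhibitor Nkd1 had 160.1 and 203 CPM in the DMSO libraries and 107, 120.3 and 118 CPM with encorafenib (-0.65), its relative Nkd2 was highest, from 1.46 ± 0.32 to 6.14 ± 0.264 CPM (2.06), and Axin2 had 405 and 428 CPM in the DMSO libraries and 417, 449 and 436 CPM with encorafenib, with overlap and no call (log2 fold change 0.059, adjusted p = 0.495). Of 18 BCL2 family genes, 4 were called higher, 4 lower and 10 neither (median log2 fold change 0.12), near the 28.5% and 24.7% of all genes. The proapoptotic Bid had 22 and 26 CPM in the DMSO libraries and 70.5, 69.5 and 69.4 CPM with encorafenib (log2 fold change 1.54 ± 0.0565, adjusted p = 4.29e-19), and Pmaip1 (NOXA) rose from 19.5 ± 1.76 to 51.4 ± 1.61 CPM (1.41). Bmf, a BH3-only protein, had 25 and 24.9 CPM in the DMSO libraries and 11.4, 11.9 and 12.1 CPM with encorafenib (log2 fold change -1.08 ± 0.125, adjusted p = 1.81e-08). BIM (Bcl2l11), which ERK marks for degradation, fell from 122 ± 16.2 to 97.9 ± 2.67 CPM (-0.31), a call lost without DMSO replicate 1. Bik was highest (1.60), with 17 and 17 reads in the DMSO libraries and 50, 53 and 59 reads with encorafenib, and Bcl2l14 lowest (-1.47).

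The day 5 response was then set against the response of NaJa-G at day 1, which shares no library with it, by testing the difference of the log2 fold changes. The difference was called for 4473 genes (31.7%), more positive at day 5 for 2192 (15.5%) and more negative for 2281 (16.2%). It was at least 1 log2 unit for 1380 genes (9.78%). Between the days, 5541 genes were called with the same sign and 358 with opposite signs, while 1603 were called at day 5 alone and 3127 at day 1 alone. Growth genes had less negative log2 fold changes at day 5. Of the mitosis genes 33 of 46 were more positive than at day 1 (median log2 fold change -0.96 at day 1), of the replication genes 23 of 44 (median -0.94), and of the MYC and ribosome biogenesis genes 27 of 38, with 4 more negative (median -1.20). No mitosis or replication gene was called more negative. Among ERK targets, Etv4 had a log2 fold change of -3.64 at day 1 and -1.93 at day 5 (difference adjusted p = 1.19e-12), and Fosl1 had -3.15 and -1.73 (adjusted p = 9.03e-09). Mean levels of Etv4 were 96.8 CPM at day 1 and 98.5 CPM at day 5 in DMSO, and 7.79 and 25.8 CPM with encorafenib, whereas those of Fosl1 were 159 CPM at day 1 and 70.2 CPM at day 5 in DMSO, and 17.8 and 20.9 CPM with encorafenib. For Dusp6, with -1.90 and -1.68, the difference was not called (adjusted p = 0.0998).

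Among matrix and contractile genes, the difference from day 1 was more often positive than negative. It was more positive at day 5 for 18 and more negative for 3 of 30 matrix glycoproteins, and likewise for 18 and 3 of 28 crosslinking enzymes and proteases. Of 23 collagens 12 were more positive and 6 more negative, and of 21 contractile genes 10 were more positive, 2 more negative and 9 not called. The medians at day 1 were 0.55, 0.66, 0.91 and 0.96. Acta2 rose by 1.34 at day 1 and by 5.29 at day 5 (adjusted p = 1.61e-17), and Col1a1 by 0.74 and 2.68 (adjusted p = 1.28e-11). The controls moved as well. Mean levels of Acta2 were 29.1 CPM at day 1 and 3.71 CPM at day 5 in DMSO, and 73.5 and 145 CPM with encorafenib. For Col1a1 they were 42.1 CPM at day 1 and 11 CPM at day 5 in DMSO, and 70.0 and 71.1 CPM with encorafenib, with the change between days called in DMSO (adjusted p = 4.12e-13) and not with encorafenib (adjusted p = 0.836). Thbs1, in contrast, had 2.66 and 2.68, and its difference was not called (adjusted p = 0.885). Sterol and WNT genes were more often called more negative, with 0 and 1 more positive. The difference was more negative for 28 of 39 sterol and fatty acid genes (median 0.19 at day 1) and for 13 of 19 WNT targets (median 0.96 at day 1). Hmgcs1 had a log2 fold change of 0.36 at day 1 and -0.81 at day 5 (adjusted p = 7.77e-12), and Nkd1 had 1.80 and -0.65 (adjusted p = 2.03e-15). Mean levels of Hmgcs1 were 156 CPM at day 1 and 333 CPM at day 5 in DMSO, and 200.3 and 190.2 CPM with encorafenib, and those of Nkd1 84.8 CPM at day 1 and 182 CPM at day 5 in DMSO, and 295 and 115 CPM with encorafenib, with both controls higher at day 5.

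**Figure D4:**
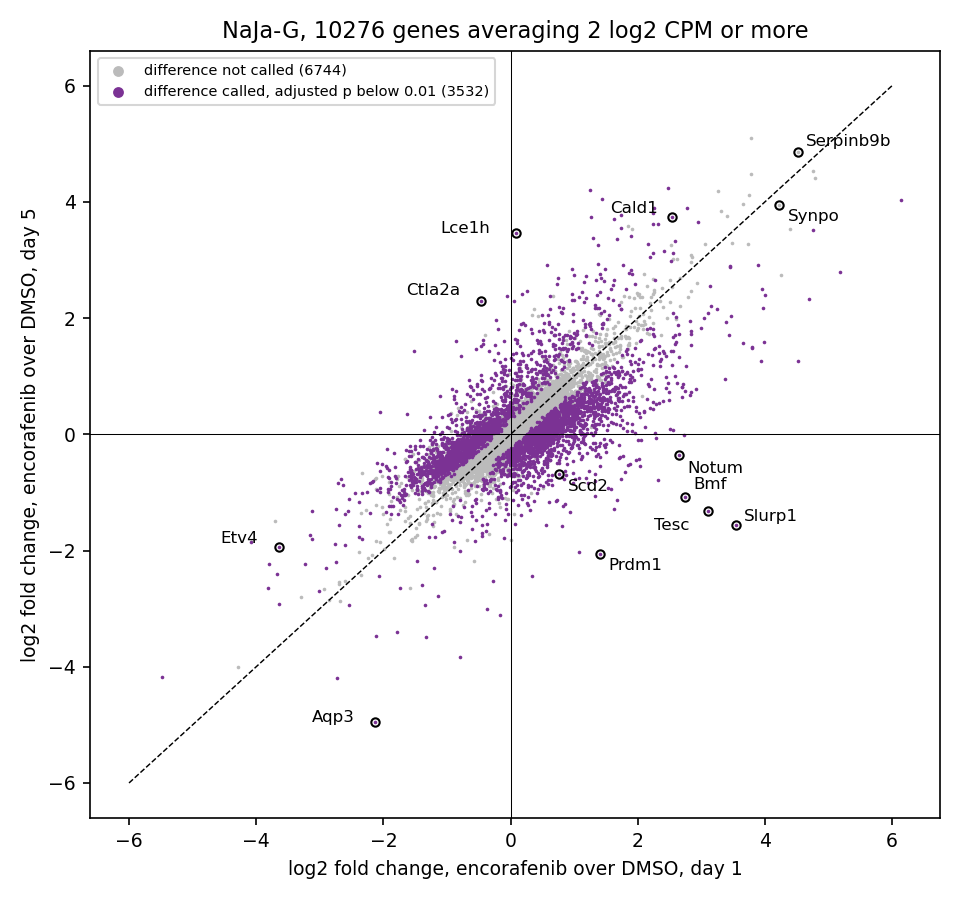
Log2 fold change of encorafenib over DMSO at day 5 against that at day 1 in NaJa-G, for genes averaging at least 2 log2 CPM; genes whose difference was called are purple and the dashed line marks equal responses. Against the DMSO of the same day, Lce1h and Ctla2a were higher at day 5 and not at day 1, and Slurp1, Tesc, Bmf and Prdm1 were higher at day 1 and lower at day 5.

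Against the other lines at day 5, the NaJa-G response was compared with that of the epithelial line NaJa-D and the intermediate line NaJa-F. These tests share the NaJa-G libraries. The response differed from that of NaJa-D for 3089 genes (21.9%), more positive in NaJa-G for 1986 (14.1%) and more negative for 1103 (7.82%), and by at least 1 log2 unit for 1034 (7.33%). It differed from that of NaJa-F for 3412 genes (24.2%), more positive for 2290 (16.2%) and more negative for 1122 (7.95%), and by at least 1 log2 unit for 1144 (8.11%). Contractile genes were more positive in NaJa-G for 16 of 21 against NaJa-D and 19 of 21 against NaJa-F, and collagens for 16 and 14 of 23. Mitosis genes were more negative for 8 of 46 against NaJa-D and 32 of 46 against NaJa-F. The response of Dusp6 was more negative in NaJa-G. Dusp6 had a log2 fold change of 0.029 in NaJa-D and -0.24 in NaJa-F, against -1.68 in NaJa-G (difference adjusted p = 1.65e-12 and 1.13e-10). Zeb1 had -0.68 and -0.85, against 0.89 in NaJa-G (adjusted p = 2.53e-06 and 6.27e-13). Ccnd1 had -0.54 and -0.22, against 0.69 (adjusted p = 5.63e-09 and 2.39e-06). For Stc1, with -4.89 and -4.63 against -4.00, neither difference was called (adjusted p = 0.0744 and 0.0795).

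**Figure D5:**
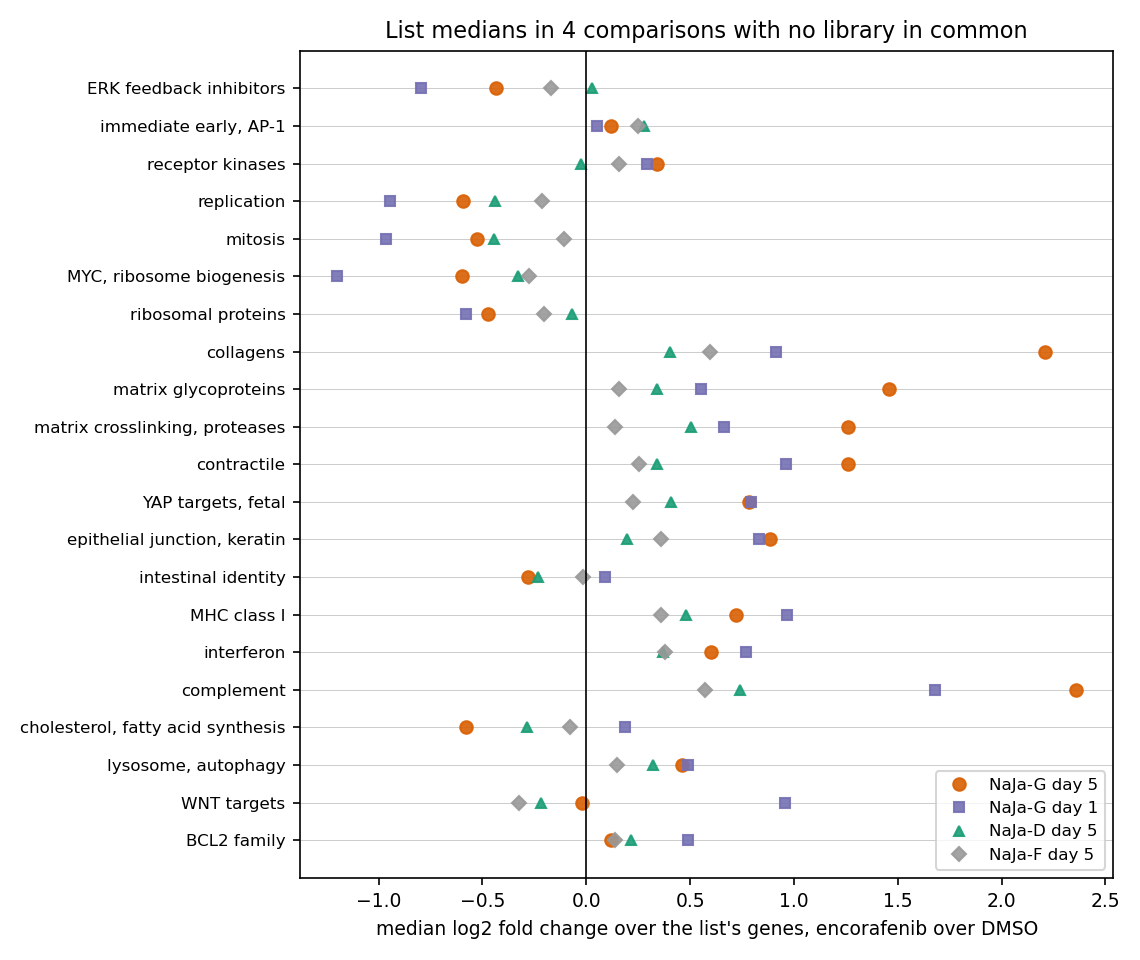
Median log2 fold change of encorafenib over DMSO over the tested genes of each list, in NaJa-G at day 5 (circles), NaJa-G at day 1 (squares), NaJa-D at day 5 (triangles) and NaJa-F at day 5 (diamonds). The 4 comparisons share no library, and the sterol list lies below 0 in NaJa-G at day 5 and above 0 at day 1.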

How the data were processed

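RNA of NaJa-G cells was sequenced by the authors. Per the labels, reads were trimmed with Trimmomatic 0.39 and aligned with STAR 2.5.2b to GRCm38, and what the authors deposited are raw read counts by gene. The counter, annotation release and use of strand were not given in the sources used here, so overlapping and antisense genes cannot be told apart. The authors' methods name limma, TMM scaling, a summed count above 2 and an adjusted p below 0.01. The smallest summed count in the table was 360, so this filter removed nothing. Groups came from the sample titles.

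The tools were limma 3.58.1 and edgeR 4.0.16 under R 4.3.3. A mean per group was fitted with voom weights over all 34 libraries in 12 groups, which share an estimate of the spread, and the Benjamini-Hochberg adjustment ran over all 14107 genes, two-sided, with calls at an adjusted p below 0.01. A call with 1 library left in a group assumes that it varies like the other groups. Fold changes are fitted log2 differences with their SE, and levels are mean ± SD of TMM-scaled CPM (n = 2 for DMSO, n = 3 for encorafenib). Symbols and positions of 14064 genes came from GENCODE M21, and promoters from RefSeq (GRCm38.p6). The procedure was tested on simulated data.

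The members and the 50 gene lists were chosen with earlier results of these data known. The text names the 15 highest and 15 lowest log2 fold changes among called genes of at least 2 log2 CPM without overlap, the 5 largest rises and falls in CPM, list members including the highest and lowest called, Braf, Trp53 and Apc, and the 5 highest and 5 lowest of each response difference. Some genes that this rule names are not reported here. Further members of lists were picked after their values were seen. As alternatives, the edgeR quasi-likelihood test, limma-trend and DESeq2 1.42.0 were run, then filterByExpr, no filter, RLE scaling, library size only, a looser threshold of 0.05 on the adjusted p, a change of 1 log2 unit or more, the replicate block, only the groups compared, the fit without a NaJa-D library whose labels conflict, and leaving out each library. The GC correction (lowess of span 0.3 per library) was chosen after seeing the data.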

Additional observations from a re-analysis of the deposited data

Results flagged for a closer look

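Every result here is listed because the response to encorafenib differed between days or lines, by a test of the difference in the limma fit. A difference between days or lines can come from the DMSO or the encorafenib libraries of either response. Values are differences of log2 fold changes, NaJa-G at day 5 minus the other response. Against NaJa-G at day 1, 4473 genes differed. Slurp1, a secreted LY6 family protein, was more negative by -5.11 (adjusted p = 3.55e-19), with 3.54 at day 1 and -1.57 at day 5. Tesc, a calcium-binding protein, followed with -4.43, the BH3-only gene Bmf with -3.82, the repressor Prdm1 with -3.47 and the cornified envelope gene Sprr2a3, one of a family of near copies, with -3.25. Against same-day DMSO, all but Sprr2a3 were higher at day 1 and lower at day 5. Mean levels of Slurp1 were 11.1 CPM at day 1 and 21.2 CPM at day 5 in DMSO, and 130.1 and 7.18 CPM with encorafenib. Those of Bmf were 4.09 CPM at day 1 and 24.9 CPM at day 5 in DMSO, and 27.4 and 11.8 CPM with encorafenib. The most positive were Lce1h (3.38), Dgkk (2.95), Clca3a1 (2.94), Ctla2a (2.76) and Plekhs1 (2.61, adjusted p = 0.00517). Clca3a1 had 4.68 and 3.08 against 9.3, 10.5 and 10.5 CPM at day 5, and its day 5 call was lost without DMSO replicate 3. Lce1h had 0.853 and 1.83 against 13.4, 15.2 and 14.3 CPM, and its day 5 log2 fold change of 3.46 became 4.05 without DMSO replicate 3. Its mean levels were 9.35 CPM at day 1 and 1.34 CPM at day 5 in DMSO, and 9.87 and 14.3 CPM with encorafenib, and those of Dgkk 3.09 CPM at day 1 and 0.89 CPM at day 5 in DMSO, and 7.39 and 16.2 CPM with encorafenib.

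Among list members, the ERK targets Etv4, Fosl1 and Egr1 were more positive at day 5 by 1.70, 1.42 and 1.16. Contractile and matrix genes were more positive too: Cnn1 by 4.71, Acta2 by 3.95, Col1a1 by 1.94 and Fn1 by 1.06. The fatty acid desaturase gene Scd2 was more negative by -1.45 (mean levels 971 CPM at day 1 and 3062 CPM at day 5 in DMSO, and 1645 and 1903 CPM with encorafenib), the WNT inhibitors Notum and Nkd1 by -2.99 and -2.45, and BIM (Bcl2l11) by -1.82. Notum had 58.9 and 82.2 against 49.7, 60.8 and 54 CPM, with overlap between the groups, and its day 5 call was lost without DMSO replicate 3.

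Against NaJa-D at day 5, 3089 genes differed. Sprr2h was the most negative in NaJa-G with -4.49, then Aqp3 with -4.34, amphiregulin (Areg) with -3.18, Tmprss11b with -2.63 and Angptl4 with -2.53. Mgam2-ps (4.02), Nat8l (3.58), Serpinb11 (3.57), Megf6 (3.55) and the sphingomyelinase Smpd3 (3.53) were the most positive. Mean levels of Mgam2-ps in DMSO and encorafenib were 0.261 and 8.99 CPM in NaJa-G, and 29.5 and 61.4 CPM in NaJa-D. In the same order Nat8l had 0.34 and 6.34, and 5.77 and 8.76 CPM. Serpinb11 had 1.80 and 31.6, and 158 and 232 CPM. Megf6 had 2.54 and 7.98, and 7.10 and 1.86 CPM. Smpd3 had 2.20 and 5.44, and 28.5 and 6.13 CPM. Dusp6 and Egr1 were more negative by -1.70 and -2.10, and Zeb1 and Ccnd1 more positive by 1.57 and 1.22.

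Against NaJa-F at day 5, 3412 genes differed. Aldh1a3 was the most negative with -2.89, then Cdx2 with -2.80, Aqp3 with -2.77, Tmprss11b with -2.58 and Trbc1 with -2.51. The most positive were Adamts15 (3.41), Nat8l (3.36), Serpinb9b (3.22), Cald1 (3.21) and Serpinb11 (3.20). Mean levels of Adamts15 in DMSO and encorafenib were 0.451 and 10.1 CPM in NaJa-G, and 2.52 and 4.74 CPM in NaJa-F. In the same order Nat8l had 0.34 and 6.34, and 53.2 and 94.7 CPM. Serpinb9b had 14.9 and 432, and 28.4 and 88.6 CPM. Cald1 had 44.2 and 590, and 189 and 273 CPM. Serpinb11 had 1.80 and 31.6, and 30.8 and 58.6 CPM. Dusp6 was more negative by -1.44 and Zeb1 more positive by 1.75. The adjusted p of the genes named here ran up to 0.00517, that of Plekhs1.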

How the results depend on the processing

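The count of 7502 called genes stayed within 1.5 times under all alternatives except the fold limit, at 6138 (only the groups compared) to 8968 (adjusted p below 0.05), with 7426 by edgeR, 7512 by DESeq2 and 7676 after the GC correction. Leaving out 1 library gave 6338 to 6986. A change of 1 log2 unit or more in either direction was met by 2263 genes, and 1380, 1034 and 1144 for the differences from day 1, NaJa-D and NaJa-F. For the difference from NaJa-D an adjusted p below 0.05 gave 4642. Leave-one-out counts were 3767 to 4593 for day 1, 2375 to 3147 for NaJa-D and 2930 to 3174 for NaJa-F. Library size only moved the median log2 fold change of all genes to -0.0346 and made 48.5% of calls higher. The share of more positive calls against NaJa-D was 64.3%, 51.4% with library size only and 74% with only the groups compared. The replicate number as a block gave 7391 calls, and 4399, 3042 and 3381 for the differences. DMSO and encorafenib share only replicate numbers 1 and 3, and their deviations correlated at 0.0779 and -0.258. With 2 DMSO libraries the deviations from their mean mirror each other, so these values cannot tell whether a number marks a batch. The labels do not say that it does. Single genes were rerun only with edgeR, DESeq2, RLE scaling, library size only, the replicate block and only the groups compared. They were also rerun without each day 5 library of NaJa-G and with the GC correction. Of 186 genes named here, 161 kept their call under all of these settings, 18 lost it under 1 or more, and 7 were not called. Of these 7, Vim and Dusp7 passed with library size only and Braf with the block, without DMSO replicate 1 and after the GC correction, and Erbb2 without DMSO replicate 3. Respiratory chain genes called lower numbered 31 with library size only. Cdh1, not called, changed sign after the GC correction (log2 fold change 0.0187). Depth limits genes with few reads in DMSO, such as Gbp2 with 2 and 8 reads, and the cause of the GC difference between the DMSO libraries was not tested.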

Other observations

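Cell guidance genes, which steer axons and migrating cells, rose more often than they fell. Of 37 semaphorin, plexin, ephrin, slit and netrin genes, 22 were called higher, 8 lower and 7 neither (median log2 fold change 0.69). Sema3d, a secreted semaphorin, had 2.83 and 2.13 CPM in the DMSO libraries and 52.4, 55.5 and 56.1 CPM with encorafenib and was the highest (4.49 ± 0.162, adjusted p = 3.15e-19). Sema5a was the lowest at 141 and 111 against 16.7, 15.3 and 17.1 CPM (-2.94). The netrin Ntn1 had 34 and 24 reads in the DMSO libraries and 559, 563 and 596 reads with encorafenib (4.28).

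Stress and redox genes were divided. Of 36 ATF4 and unfolded protein genes, 15 were called higher, 7 lower and 14 neither (median log2 fold change 0.14). Of 29 NRF2 and antioxidant genes, 7 were called higher, 12 lower and 10 neither (median -0.11). Among all genes the shares called higher and lower were 28.5% and 24.7%. The cystine transporter Slc7a11, the lowest of both lists, had 746 and 559 CPM in the DMSO libraries and 103, 110.0 and 108 CPM with encorafenib (log2 fold change -2.60 ± 0.107, adjusted p = 5.76e-18). Atf5, a stress factor, was highest of the first list, from 17 ± 4.34 to 48.7 ± 4.94 CPM (1.52), and the glutathione transferase Gsta1 of the second (2.02). Nqo1, a quinone reductase, fell from 21.3 ± 0.0648 to 12.2 ± 0.398 CPM (-0.81). Of 30 glycolysis and hypoxia genes, 7 were called higher, 11 lower and 12 neither (median -0.23), from the prolyl hydroxylase Egln3 (-1.91) to the stress gene Ndrg1 (2.02). Of 75 nuclear genes of the respiratory chain, 2 were called higher, 20 lower and 53 neither (median -0.16), from Atp5a1 (-0.66) to Ndufv3 (0.48). The share called lower was near the 24.7% of all genes, and fewer were called lower without DMSO replicate 3.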
